A study of Oryza sativa with 18 samples.

Results

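Rice coleoptiles grown for 4 d in medium bubbled with nitrogen gas were compared with coleoptiles grown for 4 d in medium bubbled with air, by MethylC-seq. In this assay bisulfite treatment of the DNA lets sequencing tell methylated from unmethylated cytosines. The coleoptile covers the young leaf of the seedling and is the organ with which rice seedlings elongate without oxygen. Both groups came from wild-type seeds of the cultivar Amaroo, de-hulled, sterilised and grown in the dark at 30 °C in the same buffered medium (MES with CaSO4). Whole coleoptiles were frozen, and primary leaf tissue was cut away from the air-grown ones, so that a difference between the groups in dissection cannot be told apart from one in oxygen. Of the 18 libraries of the study, 6 belong to this comparison, 3 per gas. The other 12 come from dry embryos, from embryos after 24 h in air or in nitrogen, and from coleoptiles kept 3 d in nitrogen and then 1 d in air (re-aeration). All regions of the 3 deposited tables were used, 8941 in total, wherever a library had at least 10 reads in a region. The tables hold nothing that marks a tissue, so the labelled tissue was not checked.

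In plants, cytosines are methylated in CG, CHG and CHH sequence contexts, where H is any base but G. MET1 copies CG methylation after replication, chromomethylases maintain CHG methylation, and DRM2, guided by small RNAs, adds methyl groups in all contexts. Methylation is lost either by replication without copying or by excision through DNA glycosylases of the DEMETER and ROS1 family. Methylation of transposons is known for keeping them silent.

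The 3 tables differ in how their regions were picked, and this decides what each can show. The oxygen table (2131 regions) was made by the authors from this very contrast, so its counts and sizes are a description of picked regions. The dry seed table (5908 regions) was made from dry embryos against the 24 h embryos, none of which enter the contrast at 4 d. The re-aeration table (902 regions) was made from re-aerated against nitrogen-kept coleoptiles, and so shares the nitrogen libraries. Regions were short, with medians of 37, 58 and 47 bp and extremes of 3 and 573 bp. Over the 6 libraries, total reads in the regions ran from 409956 to 531162 for the oxygen table, from 865237 to 1008683 for the dry seed table and from 119663 to 145262 for the re-aeration table. A level is the percent of a region's reads that were methylated, and differences are nitrogen minus air in percentage points. Whether 1 read stands for a molecule or for a cytosine was not stated in the sources used here. Reads rose with region length (Spearman's rho of 0.93 in the oxygen table), as a count summed over cytosines would. Reads in a region may therefore exceed the number of molecules. Counting limits cover counting error only and may be too narrow. In a bulk sample, a higher level in each cell and more cells of a highly methylated type cannot be told apart. The labels do not say that libraries of a group came from separate cultures, so p-values measure only how these libraries spread, which could be technical. Positions are those of the deposited tables, for which no genome build was found in the sources used here, so no gene or sequence was assigned. The columns of methylated reads carry the label CG, while the names of the deposited tables carry CNN, so which sequence context the levels belong to is not settled here. Whether starts count from 0 or from 1 is not stated either, so each length given may be off by 1 bp.

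In the picked regions of the oxygen table, methylation stood far higher in nitrogen. The mean level over the regions was 39.5%, 35.6% and 36.9% in the 3 air libraries and 69.7%, 70.7% and 70.0% in the 3 nitrogen libraries. The groups did not overlap, and the air libraries spread more widely than the nitrogen ones. Regions in air were mostly partly methylated, with 1761 of 2131 between 20% and 60%, 276 under 20% and 1 at 80% or above. In nitrogen 583 stood at 80% or above and 13 under 20%. The median level of a region was 38.1% in air, with 5th and 95th percentiles of 12.97% and 59.3%, and 72.9% in nitrogen, with 42.99% and 88.9%. Most regions therefore went from partly to largely methylated between the gases, and few started under 20%.

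**Figure D1:**
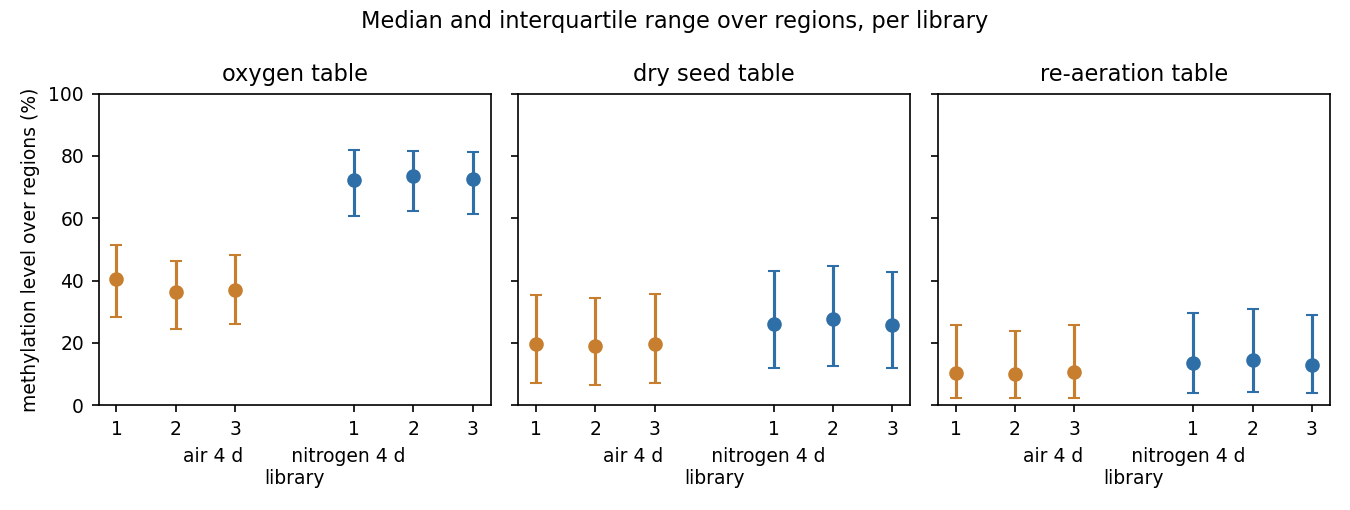
Methylation level over the regions of each table (y axis, percent) in the 3 air and 3 nitrogen libraries at 4 d (x axis). Points are medians over regions and bars the interquartile range over regions. The nitrogen libraries lie above all air libraries in each table, with medians of 72.3% to 73.6% against 36.2% to 40.4% in the oxygen table and smaller gaps in the others.

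A quasi-binomial model, fitted to the methylated and total reads of all 9 coleoptile libraries, called a region at a Benjamini-Hochberg adjusted p under 0.05 with a difference of at least 10 points. It called 2101 regions of the oxygen table higher in nitrogen (98.6% of those tested) and 2 lower (0.0939%). Picking on this contrast favours calls, and whether the authors also picked by direction was not stated in the sources used here. All nitrogen libraries lay above all air libraries in 2078 of 2128 regions with 6 measured levels (97.7%) and below in 6 (0.282%), counts that the same picking shaped. Differences from 20 up to 30 points were the most common, in 729 regions, with 665 from 30 up to 40, 360 from 40 up to 50, 121 from 50 up to 60 and 38 above that. Another 205 lay from 10 up to 20 points and 6 from 0 up to 10, and 7 were below 0. The 9 pairs of 1 nitrogen and 1 air library had median absolute differences of 28.2 to 33.4 points, against 6.66 to 7.15 between air libraries and 5.50 to 5.70 between nitrogen libraries. Reads were similar in the gases, with a median log2 ratio of 0.15 for nitrogen over air.

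Among oxygen table regions with at least 100 reads in each of the 6 libraries, the largest called difference was on chromosome 6 from 17893461 to 17893509. It stood at 29.5%, 39.8% and 31.6% in air and at 87.1%, 85.3% and 88.2% in nitrogen (132 to 181 reads), a difference of 53.3 points. All nitrogen libraries lay more than 40 points above the highest air library. The next, on chromosome 11 from 3689115 to 3689142, showed 27.4%, 28.6% and 52.1% in air and 84.5%, 85.5% and 92.8% in nitrogen (108 to 163 reads). Air library 3 was high, but still below all nitrogen libraries. The region on chromosome 5 from 29112899 to 29112991 had more reads, 309 to 486, with 34.6%, 14.9% and 33.6% in air and 78.7%, 73.9% and 80.5% in nitrogen. A 30 bp stretch of chromosome 7 from 9287577 to 9287606 had 46.96%, 38.9% and 38.9% in air and reached 94.9%, 88.7% and 86.5% in nitrogen. The other 4 of this kind were on chromosomes 11, 9, 1 and 9, starting at 10192755, 21843107, 7428705 and 9556478, with differences of 50.5, 47.95, 47.7 and 47.6 points. In all 8, the air libraries were partly methylated, and in 3 of the 8 an air library stood at least 15 points away from both of the others.

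The regions at the edges of the call show what the threshold separates. Just inside it, 150 bp of chromosome 5 starting at 6695328 and ending at 6695477 averaged 37.2% ± 2.34 (SD, n = 3) under air against 47.3% ± 0.457 (SD, n = 3) under nitrogen, with 551 to 855 reads. Near it, the region on chromosome 3 from 15922461 to 15922550 also differed by 10.1 points, with 1 nitrogen library at 22.2% close to the highest air library at 20.1%. The 191 bp of chromosome 9 between 16176945 and 16177135 were nearly unmethylated in air, at 4.43% ± 1.66 (SD, n = 3), with 15.2% ± 1.17 (SD, n = 3) in nitrogen. Just outside, the 3 uncalled regions with the largest differences were short and had uneven levels. On chromosome 3, the 9 bp from 4529361 to 4529369 showed 21.4%, 14.3% and 41.5% in air and 64.7%, 93.3% and 48.8% in nitrogen (42 to 65 reads). The quasi-binomial model gave it an adjusted p of 0.0540, although the groups did not overlap. In the other 2, the groups overlapped: 8 bp of chromosome 3 starting at 31906907 differed by 33.8 points, and 7 bp of chromosome 9 starting at 20217488 by 31.02 points. With limma on percent levels all 3 passed (adjusted p of 0.00793, 0.0101 and 0.0309). Without 1 library they passed in some cases (adjusted p of 0.0171 to 0.0456 in the quasi-binomial fit), and those just inside fell under 10 points in others. Of the 28 regions not called, 17 differed by 10 points or more, and 23 stood higher and 5 lower in nitrogen. As a set these 28 were not short, with a median of 36.5 bp against 37 bp over the table. The lowest reads of the 6 libraries had a median of 156.5 in them and of 130 in called regions.

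Regions called lower in nitrogen were rare and kept their direction library by library. On chromosome 2, the 10 bp from 10863433 to 10863442 read 91.7%, 93.3% and 87.6% in air against 25.7%, 28.5% and 16.6% in nitrogen (35 to 49 reads). The 46 bp on chromosome 11 from 1949445 to 1949490 read 53.2%, 37.2% and 47.3% against 13.8%, 21.4% and 16.5% (122 to 182 reads). Of these, the first was also the 1 region of the table at 80% or above in air.

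Oxygen table regions mostly stood alone on the chromosome. The median gap between successive regions was 98420 bp, and 2028 regions (95.2%) had no other region of the table within 1000 bp. There were 44 runs of 2 regions and 4 runs of 3 or more. The longest run lay on chromosome 4 from 29053106 to 29055330, where 6 regions within 2225 bp were all higher in nitrogen. It also held 3 of the 4 longest called regions of the table. Its longest region, the 573 bp from 29054758 to 29055330, stood at 49.3%, 44.4% and 48.1% in air and at 70.7%, 72.8% and 71.3% in nitrogen, with 1813 to 2479 reads per library. The 421 bp from 29053320 to 29053740 stood at 29.6%, 28.9% and 27.7% in air and at 58.98%, 57.1% and 57.1% in nitrogen. The 57 bp from 29054157 to 29054213, between the longer ones, went from 28.3% ± 11.1 (SD, n = 3) to 88.6% ± 3.98 (SD, n = 3). Differences within the run ranged from 14.8 to 60.3 points. The shared direction is that of the whole table, where 98.6% of tested regions were called higher in nitrogen.

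**Figure D2:**
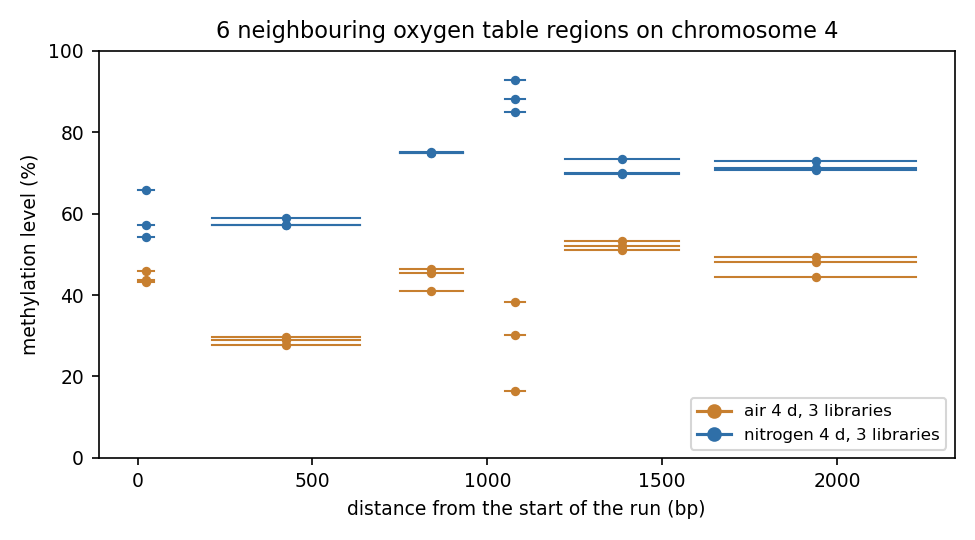
Methylation level (y axis, percent) of the 6 neighbouring oxygen table regions on chromosome 4 by distance from the start of the run (x axis, bp). Each line spans a region in 1 library, with a dot at its middle; the 3 nitrogen libraries lie above the 3 air libraries in all 6 regions, by 14.8 to 60.3 points between means.

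The other longer runs had 3 regions each, on chromosome 1 from 22462255 to 22463475 and from 26905319 to 26906498 and on chromosome 11 from 15341493 to 15342019. All 9 regions were called higher in nitrogen, as were 98.6% of the tested regions of the table. In the second of these runs, the 429 bp from 26905549 to 26905977 had 1637 to 2160 reads and very even levels, 23.4%, 23.7% and 23.7% in air and 50.5%, 48.9% and 49.4% in nitrogen. The 11 bp on chromosome 11 from 15341849 to 15341859 had 31 to 52 reads and averaged 26.8% ± 13.3 (SD, n = 3) under air against 92.0% ± 6.86 (SD, n = 3) under nitrogen. The runs were singled out after their values were seen. Over the table, the differences of neighbours within 1000 bp had a Spearman rho of 0.07 across 55 pairs, against -0.01 across pairs further apart. This is a correlation across regions that share the same libraries.

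The dry seed table shows the contrast in regions that were not picked for it. Here too methylation stood higher in nitrogen, by far less. The mean level was 23.5%, 22.7% and 23.4% in the air libraries and 28.96%, 30.1% and 28.8% in the nitrogen libraries. The groups did not overlap, and the difference of means was 6.10 points. The exact two-sided permutation test gave p = 0.1, the smallest that 3 against 3 allows. The median difference over 5847 tested regions was 5.01 points (quartiles 0.84 and 10.8), and 4701 regions (80.4%) stood above 0 against 1114 below. All 3 nitrogen libraries lay above all air libraries in 1677 of 5659 regions (29.6%) with 6 measured levels, and below in 76 (1.34%). The differences of single pairs of libraries were small beside the spread, with median absolute values of 6.40 to 7.58 points between the gases, 4.52 to 4.65 within air and 5.06 to 5.24 within nitrogen. The median difference was nevertheless above 0 in each of the 9 pairs, between 4.04 and 5.90 points.

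In the dry seed table the quasi-binomial model called 112 regions higher in nitrogen (1.92%) and 1 lower (0.0171%), and 989 had an unadjusted p under 0.05, of which 973 were higher. This count rests on the spread shared by all 18 libraries, which include the dry embryo and 24 h libraries used in the picking. What that picking does to the spread was not tested. With the spread of the 6 compared libraries alone, which leaves few degrees of freedom, 0 regions were called and 1096 had an unadjusted p under 0.05, whereas limma, run on percent levels, called 235 higher and 2 lower. With the spread of the air and nitrogen libraries at 24 h and 4 d, an alternative chosen after seeing the data, the count was 131, of which 79 were among the 112. It fell to 69, 33 and 25 without air library 1, 2 or 3 and to 58, 42 and 52 without nitrogen library 1, 2 or 3. Of 309 regions with a difference of 20 points or more, 49 were called, and 13 regions lay 20 points or more below air.

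Among the dry seed table regions, that on chromosome 1 from 30467621 to 30467715 and that on chromosome 3 from 1871665 to 1871733 each overlap a region of the oxygen table, so both are loci that were also picked on this contrast. The other 6 of the 8 largest called higher overlap none. The region on chromosome 1 stood at 43.4%, 45.2% and 49.7% in air and at 79.6%, 84.5% and 83.9% in nitrogen (191 to 260 reads), with an adjusted p of 0.000359 from the quasi-binomial fit. The groups lay about 30 points apart at their nearest. The 69 bp on chromosome 3 had 39.9%, 44.9% and 36.6% in air and 73.6%, 80.4% and 79.7% in nitrogen (172 to 200 reads; adjusted p = 0.00877). Dry embryos had 91.6% ± 3.12 (SD, n = 3) in that region, above the libraries of both gases. In the region on chromosome 1 they had 73.7% ± 5.66 (SD, n = 3), below all 3 nitrogen libraries. Among the 6 without overlap, the region on chromosome 4 from 31087097 to 31087114 showed 29.2%, 41.6% and 41.8% in air and 83.4%, 70.2% and 75.2% in nitrogen (48 to 74 reads), against 90.1% ± 2.66 (SD, n = 3) in dry embryos. All 3 calls were lost with the spread of the compared libraries alone.

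The largest called difference of the dry seed table rested on few reads. On chromosome 11, the 16 bp from 28931798 to 28931813 had 0% in all 3 air libraries, from 18, 12 and 20 reads, where counting would allow levels up to 16.7%, 25% and 15%. The 2 nitrogen libraries with enough reads stood at 40.4% and 46.9%, and the other had 4 reads and was left out. The quasi-binomial adjusted p was 0.0267, and it rose above 0.05 under the replicate block (0.0701), when dispersion came from the compared libraries only (0.209) and without any 1 of the air libraries (0.0939 to 0.116). The other 4 of the 8 largest were on chromosome 2 from 5622196, chromosome 9 from 1212718, chromosome 1 from 40703352 and chromosome 7 from 1196583, with differences of 41.2, 39.4, 38.01 and 37.3 points. Of these calls, that on chromosome 9 was lost without any 1 of the 6 libraries, with quasi-binomial adjusted p of 0.0580 to 0.122. That on chromosome 2 was lost without any 1 of them but nitrogen library 3 (0.0535 to 0.0652), that on chromosome 1 without air library 2 (0.0510), and that on chromosome 7 without air library 2 (0.0534) or 3 (0.0726). The 1 region called lower, on chromosome 8 from 9212552 to 9212577, stood at 29.2%, 35.8% and 29.04% in air and at 6.11% and 4.99% in the 2 nitrogen libraries with enough reads. Its quasi-binomial adjusted p of 0.0360 rose to 0.0746 with at least 30 reads, to 0.0704 with the replicate block and to 0.0562 to 0.107 without 1 library.

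Levels in the other libraries of the study place the 112 regions called higher, whose values at 4 d are a description since they were called on them. Their mean level was 76.8% ± 0.764 (SD, n = 3) in dry embryos, 48.7% ± 0.731 (SD, n = 3) after 24 h in air and 56.1% ± 0.327 (SD, n = 3) after 24 h in nitrogen. At 4 d the air libraries averaged 35.997% ± 0.563 (SD, n = 3), the nitrogen libraries 57.3% ± 0.162 (SD, n = 3) and the re-aerated ones 60.98% ± 0.889 (SD, n = 3). The air group was thus lower at 4 d than at 24 h, while the nitrogen groups at 24 h and 4 d stood within 2 points, in regions called for a high nitrogen and a low air level at 4 d. Over the whole table the mean in air was 26.04% at 24 h and 23.2% at 4 d, and in nitrogen 29.2% and 29.3%. At 24 h, nitrogen was above air in 99 of the 112 regions, with a median difference of 7.43 points. In the 5828 tested regions that overlap no oxygen table region it was above air at 24 h in 4092, with a median of 2.61 points. The exact two-sided permutation p for the library means at 24 h was 0.1 in both sets, the smallest possible.

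Whether the gas difference at 4 d was another one than at 24 h was tested as an interaction in the dry seed table. The difference at 4 d exceeded that at 24 h by a median of 2.22 points, with an interquartile range of -2.11 to 7.59, and was the larger in 3719 of 5840 regions. The quasi-binomial model called 0 regions (0%), with 306 at an unadjusted p under 0.05, of which 273 were larger at 4 d. Limma on the levels called 1 region. Tissue and time differ together between these stages, so the interaction belongs to both. Across regions, the differences at 24 h and at 4 d, which share no library, had a Pearson r of 0.21 and a Spearman rho of 0.23 over 5846 regions. All 3 nitrogen libraries lay above all air libraries at both stages in 325 of 5606 regions (5.80%) and below at both in 2 (0.0357%). They were below at 24 h and above at 4 d in 24 (0.428%), and the reverse in 3 (0.0535%).

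In the re-aeration table, too, there was an excess in nitrogen. Re-aerated libraries averaged 67.1% ± 0.818 (SD, n = 3) there, so the picked regions stood low on average in the nitrogen libraries used here. Such picking can lower nitrogen minus air, so its size cannot be ranked against that in the dry seed table. The mean level was 16.1%, 15.4% and 16.2% in the air libraries and 19.8%, 20.7% and 19.7% in the nitrogen libraries, so the groups did not overlap (exact two-sided permutation p = 0.1). Over 894 tested regions the median difference was 2.15 points (quartiles -0.33 and 6.53), and 629 regions (70.4%) stood above 0. All nitrogen libraries were above all air libraries in 184 of 861 regions (21.4%) and below in 20 (2.32%). The model called 2 regions higher (0.224%) and 0 lower (0%), and 101 had an unadjusted p under 0.05, of which 3 were lower. Run on percent levels, limma called 15 higher and 0 lower.

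Those called in the re-aeration table had many reads. The 34 bp on chromosome 11 from 3047293 to 3047326 had 51.0%, 54.2% and 43.4% in air and 85.6%, 83.8% and 86.6% in nitrogen (173 to 287 reads). That on chromosome 8 from 20833712 to 20833859 stood at 10.2%, 15.9% and 18.01% in air and at 42.9%, 44.9% and 44.6% in nitrogen (532 to 822 reads). In both regions the nitrogen libraries lay within 3 points of each other, and the air libraries within 11. Their adjusted p of 0.0265 and 0.0473 in the quasi-binomial model rose above 0.05 with the spread of the compared libraries alone (0.128 for both), with the replicate block (0.110 and 0.289) and without any 1 of the 6 libraries (0.0634 to 0.219). The first is among the few loci that the oxygen table also holds.

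The tables hardly shared loci. Of the oxygen table, 19 regions (0.892%) overlapped a region of the dry seed table by 1 bp or more, which is 0.322% of that table, and 10 (0.469%) overlapped the re-aeration table, 1.11% of it. Where they did, the values come from the same libraries, and the differences were alike in some pairs and not in others. On chromosome 7, the oxygen region from 23623697 to 23623792 stood at 60.01% in air and 82.7% in nitrogen, and the dry seed region from 23623673 to 23623788 at 57.0% and 78.7%. On chromosome 3, the oxygen region from 24189334 to 24189377 differed by 32.9 points and the wider dry seed region around it, from 24189213 to 24189391, by 19.6. The call on the latter was lost without air library 3 (quasi-binomial adjusted p = 0.0537). On chromosome 3 from 4343362 to 4343416 the oxygen region differed by 21.7 points, and the 18 bp dry seed region inside it by 26.9. On chromosome 11, a 93 bp oxygen region from 11925648 differed by 23.1 points and the 285 bp dry seed region around it by 15.9, which was not called (adjusted p = 0.0870 in the quasi-binomial model).

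The excess in the dry seed table did not rest on the shared loci. Its 5828 other tested regions had a median of 4.97 points and 80.3% above 0, and held 102 of the 112 regions called higher. In the re-aeration table the 884 other regions had a median of 2.02 points and 70.0% above 0. The dry seed table difference was larger near oxygen table regions. Its median was 6.86 points in 168 regions at 1 to 1000 bp from one, 5.90 in 662 regions over 1000 and up to 10000 bp away, 5.08 in 3242 up to 100000 bp away and 4.13 in 1749 further off. The part of region density in this order was not tested.

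By level in air, the 3 tables differed. In the oxygen table the median difference was 28.99 points in the 59 regions up to 10% in air, 38.2 from 10% to 20%, 36.2 from 20% to 40%, 28.99 from 40% to 60% and 22.8 in the 93 regions from 60% to 80%. In the dry seed table it was 3.12 points in 1781 regions up to 10%, 5.91 from 10% to 20%, 7.11 from 20% to 40%, 6.41 from 40% to 60%, 0.94 in 214 regions from 60% to 80% and -5.05 in 44 regions above 80%. In the re-aeration table it was 1.47, 2.51, 3.58 and 2.50 points in the bins up to 60%, and 16.9 points in the 15 regions from 60% to 80%. Regions nearly empty in air thus held a smaller excess in the dry seed table. Those above 80% held none in the median, with 22.7% of them above 0.

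The level in air enters both the bins and the difference, so the bins were also taken from 1 air library and the difference from the other 2. The dry seed table then gave 2.67 to 2.76 points up to 10%, 6.77 to 7.27 from 20% to 40% and 7.24 to 7.85 from 40% to 60%. From 60% to 80% it gave 3.29 to 5.04 points, and above 80% -2.06 to -1.07. The fall at high levels was smaller in this form and remained in sign for each of the 3 air libraries. The oxygen table flattened to 31.7 to 34.2 points up to 10% and 25.5 to 30.1 from 60% to 80%.

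**Figure D3:**
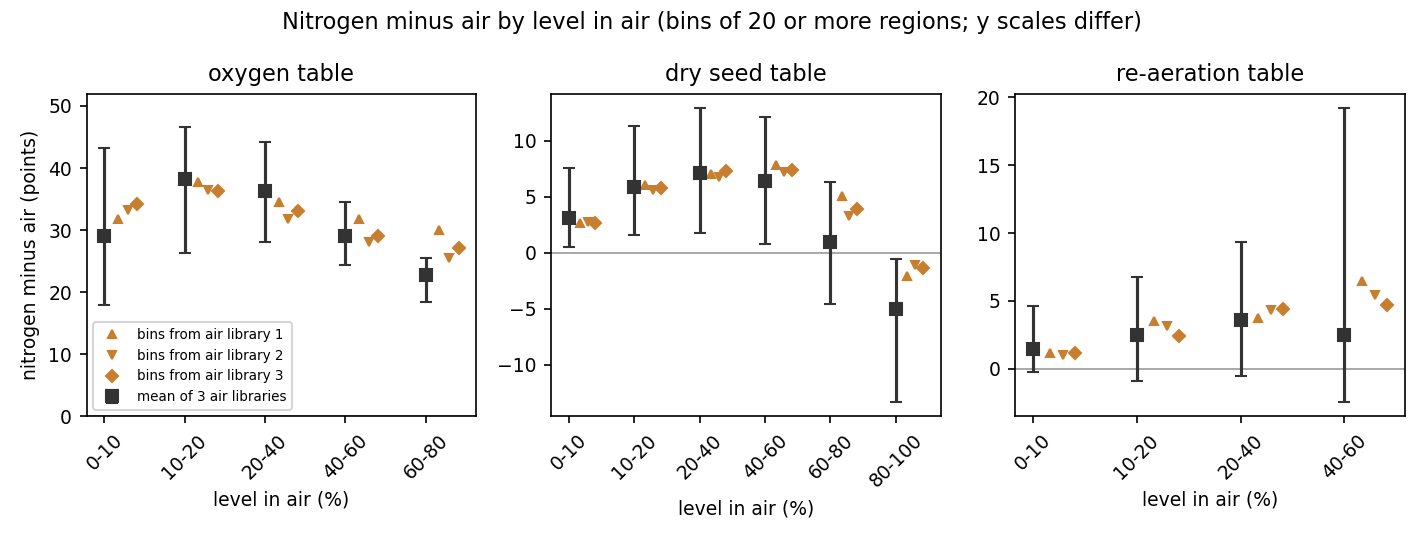
Nitrogen minus air at 4 d (y axis, points, with its own scale in each panel) by level in air (x axis, percent) for bins of 20 or more regions. Squares and bars are the median and interquartile range with bins from the mean of the 3 air libraries, and orange symbols are medians with bins from 1 air library and the difference from the other 2. In the dry seed table the median is highest between 20% and 60% in air and is below 0 above 80%.

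Levels in the embryo libraries, which share nothing with the difference at 4 d, gave the same rise from low levels in the dry seed table. The highest bin of level in air at 24 h pools all regions above 60%. It therefore cannot show whether the median falls below 0 above 80%. By level in air at 24 h, the median difference at 4 d was 1.46 points in 1264 regions up to 10%, 4.91 from 10% to 20%, 6.75 from 20% to 40%, 8.47 from 40% to 60% and 7.74 in 279 regions above 60%. By level in dry embryos it was 2.42 points in 144 regions up to 40%, 3.32 from 40% to 60%, 5.67 from 60% to 80%, 7.27 from 80% to 90% and 6.25 above 90%. The table also gives a count per region headed number_of_mcs, read here as the number of differentially methylated sites, a meaning that the header does not spell out. With up to 5 such sites the median was 7.00 points in 2357 regions, and with more than 20 it was 2.37 points in 507. None of the latter was called higher, against 1.92% of all tested regions. Spearman's rho across regions was -0.21 for the number of sites and 0.30 for the level in air at 24 h, as descriptions over regions that share libraries.

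Length separated the tables. In the oxygen table the median difference was 46.8 points in 191 regions of 1 to 9 bp, 37.9 at 10 to 29 bp, 30.3 at 30 to 59 bp, 26.3 at 60 to 99 bp and 23.4 in 242 regions of 100 bp or more. Both ends moved, since mean levels over the shortest bin were 26.8% ± 3.07 (SD, n = 3) under air against 74.5% ± 0.502 (SD, n = 3) under nitrogen, and over the longest 40.01% ± 1.61 (SD, n = 3) against 63.3% ± 0.261 (SD, n = 3). Spearman's rho of difference and length was -0.63. Reads moved with it, from a median of 49.5 per library in the shortest bin to 513.8 in the longest, and rho of difference and reads was -0.70. With at least 30 reads in each library the shortest bin had a median of 43.8 points and the longest 23.4. Length and reads had a rho of 0.93 with each other, and their parts were not separated. In the dry seed table the medians were 7.27, 5.83, 4.89, 4.23 and 5.28 points over the same bins, with a rho of -0.05. For the re-aeration table they were 4.79, 2.80, 2.16, 1.60 and 1.38 points, with a rho of -0.08. The rise towards short regions by over 20 points was thus seen in the table picked on the contrast.

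**Figure D4:**
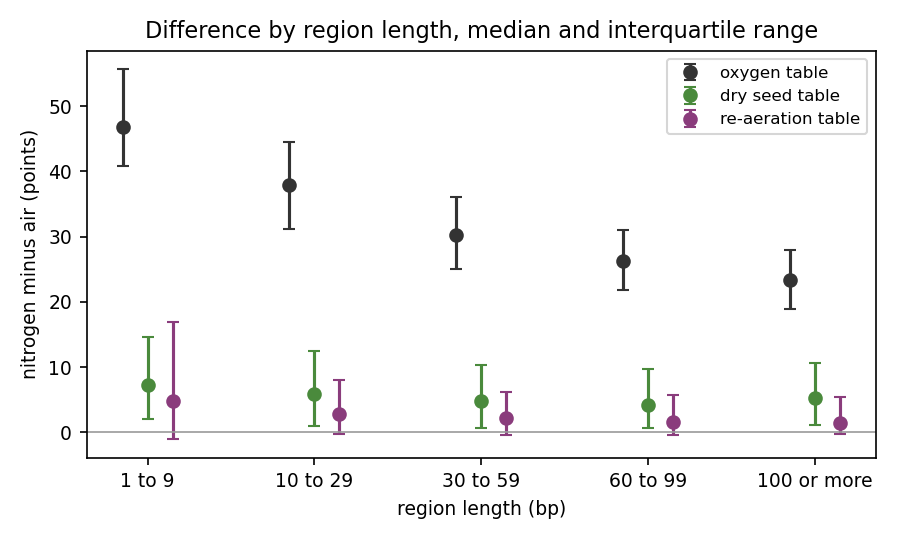
Nitrogen minus air at 4 d (y axis, points) by region length (x axis, bp) for the 3 tables. Points are medians and bars interquartile ranges over regions; the oxygen table falls from 46.8 to 23.4 points, and the dry seed and re-aeration tables stay between 1.38 and 7.27 points.

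All 12 chromosomes showed the excess in each table. Medians per chromosome ran from 30.7 points (chromosome 2) to 33.3 (chromosome 10) in the oxygen table, from 3.92 (chromosome 8) to 5.69 (chromosome 3) in the dry seed table and from 0.77 (chromosome 11) to 3.86 (chromosome 10) in the re-aeration table. Regions called higher in the dry seed table made up 1.92% of those tested, with 3.34% on chromosome 1 and 0.571% on chromosome 11. On chromosome 12, 0 of 265 tested (0%) were called, although 82.6% stood above 0. These shares rest on calls that changed with the spread and libraries used, and differences between chromosomes were not tested. In windows of 5 Mb with at least 20 tested regions, the median was above 0 in 76 of 76 windows of the dry seed table. It ranged from 1.52 points on chromosome 10 between 5 and 10 Mb to 9.10 on chromosome 4 between 30 and 35 Mb. The 55 such windows of the oxygen table ranged from 26.5 to 38.4 points.

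Along the chromosome, the dry seed table excess was smaller in the middle and larger towards the ends. Each chromosome was divided into 10 equal segments between the first and last position of the dry seed table, numbered from low to high positions. The median was 5.17 and 5.03 points in segments 1 and 2, 3.92, 3.85, 4.01 and 3.97 in segments 3 to 6, and 5.02, 5.82, 6.68 and 6.23 in segments 7 to 10. Regions called higher made up 0.192% of segment 4 and 3.82% of segment 10, against 1.92% of all tested regions. Mean levels over the segments ranged from 22.04% to 24.4% in air and from 27.6% to 31.2% in nitrogen. In nitrogen the level was 27.6% ± 0.819 (SD, n = 3) in segment 5 and 31.2% ± 0.745 (SD, n = 3) in segment 9. The oxygen table showed no such order in size, with medians of 29.7 to 32.9 points, but it held 109 regions in segment 5 and 286 in segment 9, where the dry seed table held 430 and 574. In the re-aeration table the medians lay between 1.02 points in segment 6 and 3.26 in segment 10.

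**Figure D5:**
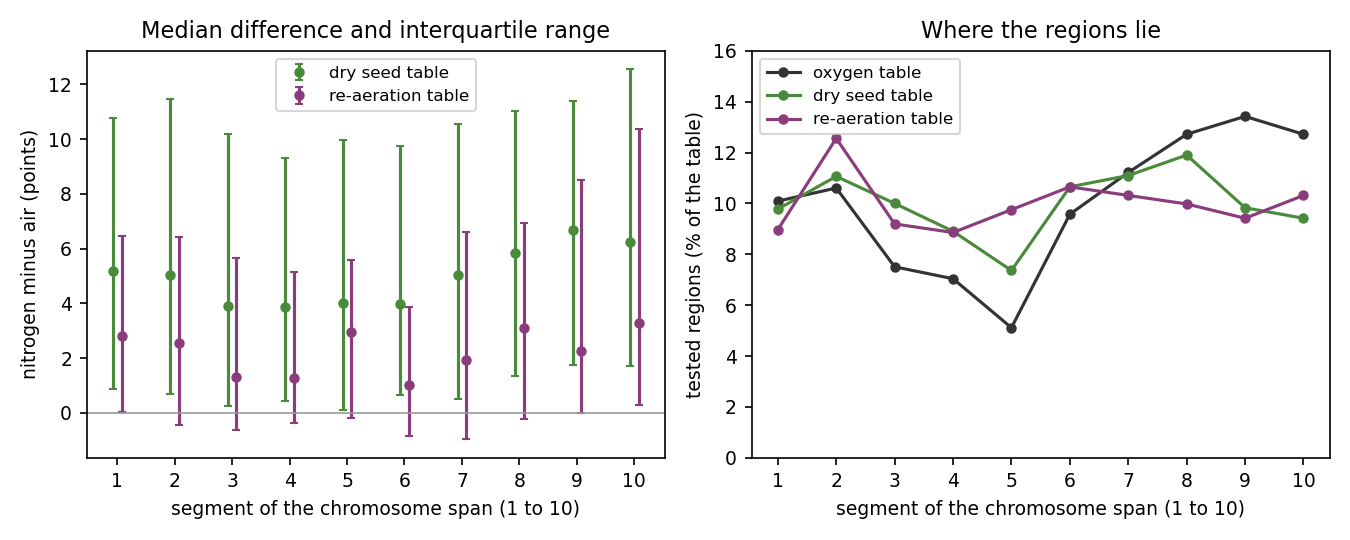
Left, nitrogen minus air at 4 d (y axis, points; median and interquartile range over regions) by segment of the chromosome span (x axis) in the dry seed and re-aeration tables. Right, percent of each table's tested regions that lie in each segment; the dry seed table difference is lowest in segments 3 to 6, and the oxygen table holds 109 regions in segment 5 against 286 in segment 9.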

How the data were processed

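The total read counts per region and library are whole numbers in the deposited tables. The deposited methylated reads were treated as estimated counts, since each is a whole number times a library factor of 0.9977 to 0.9983 (100% whole within 0.02), and they were rounded. The deposited percent is methylated over total reads and was set to missing under 10 reads. The authors picked the regions; the caller, its filters, the aligner and the build were not named in the sources used here. Per the labels' protocols, libraries held 600 ng of DNA with 0.5% lambda DNA. The number of unused columns of per-library values was 0.

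Columns were assigned to libraries by group and replicate number in their names. Each region was fitted with a quasi-binomial logistic model (Python 3.11.15, numpy 2.4.6, scipy 1.17.1), with a term per group, a dispersion of at least 1 shared by all groups of a table, an F test on the deviance and Benjamini-Hochberg adjustment over the table. At least 2 libraries per group were required. Calls needed an adjusted p under 0.05 and a difference of at least 10 points. The interaction was tested on the logit scale, with its size given in points. The model was tested on simulated data. limma 3.58.1 (R 4.3.3) was the alternative, and overlaps used bedtools 2.31.1.

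The members, lists and rules were chosen with earlier results of these data known. Regions named were, in the oxygen table, the 8 largest called with 100 reads in each library, the 4 longest called, those called lower, the 3 called with the smallest and the 3 uncalled with the largest difference. In the dry seed table they were the 8 largest called higher and up to 5 called lower, in the re-aeration table up to 6 called each way, and the 4 overlapping pairs with the most reads. Runs of neighbours were named after their values were seen. Lengths are end minus start plus 1. The planned check of positions against a genome and the planned gene classes were not run.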

Additional observations from a re-analysis of the deposited data

Results flagged for a closer look

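In a pair of dry seed table regions named above, all nitrogen libraries with enough reads lay on one side of all air libraries at 24 h and on the other side at 4 d. On chromosome 1, the 16 bp from 40703352 to 40703367 stood at 56.1%, 71.3% and 51.9% in air and 47.7%, 33.7% and 29.9% in nitrogen at 24 h, and at 23.5%, 23.6% and 41.6% in air and 66.5%, 74.1% and 62.2% in nitrogen at 4 d. The difference at 4 d minus that at 24 h was 60.6 points, with an adjusted p of 0.0662 in the quasi-binomial model, 0.0116 with limma and 0.0498 without air library 3. Reads were 21 to 80 in the 24 h libraries and 34 to 93 at 4 d. On chromosome 8, from 9212552 to 9212577, nitrogen stood at 12.5%, 17.4% and 23.04% against 11.5%, 7.98% and 8.42% in air at 24 h, and below air at 4 d in the 2 nitrogen libraries measured. The difference at 4 d minus that at 24 h was -34.1 points (adjusted p = 0.388 in the quasi-binomial model). The region on chromosome 8 is not among the 5606 regions with all 12 levels. Of those 5606, 24 (0.428%) were below air at 24 h and above at 4 d, and 3 (0.0535%) the reverse.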

How the results depend on the processing

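In the oxygen table the count called higher was 1901 to 2115 over all alternatives, and the count called lower was 2 to 3, or 6 with no minimum difference. The count of 112 higher in the dry seed table became 49 with a minimum of 20 points, 0 when dispersion came from the 6 compared libraries only, 235 with limma and 25 to 69 with a library left out. The 1 lower became 0 with 30 reads, the replicate block, dispersion from the compared libraries only or any library left out (0 to 0), and 2 with limma, which added chromosome 6 from 8627894 to 8627920. The 2 higher in the re-aeration table became 0 under the replicate block, with dispersion from the compared libraries only, without regions that overlap the oxygen table (chosen after seeing the data) and with a library left out (0 to 0), and 15 with limma. The interaction count of 0 became 1 with limma, and 0 to 1 with a library left out. Causes were not tested. Same-numbered libraries hardly deviated together, with r of -0.02 to 0.05 in the 3 tables, against -0.05 to 0.02 for differing numbers. Some libraries correlated better with another number than with their own. The replicate block gave 2051, 91 and 0 regions called higher in the oxygen, dry seed and re-aeration tables.

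The difference of mean levels, 32.8, 6.10 and 4.16 points in the oxygen, dry seed and re-aeration tables, was 28.0, 7.11 and 5.04 from summed reads and 34.9, 7.04 and 3.24 from medians over regions. With bins from 1 air library the oxygen table gave 31.7 to 34.2, 36.2 to 37.7, 31.8 to 34.5, 28.0 to 31.8 and 25.5 to 30.1 points in rising bins up to 80%. The dry seed table gave 2.67 to 2.76, 5.61 to 6.08, 6.77 to 7.27, 7.24 to 7.85, 3.29 to 5.04 and -2.06 to -1.07. The re-aeration table gave 1.00 to 1.18, 2.39 to 3.55, 3.71 to 4.41 and 4.70 to 6.45 up to 60%. Bins under 20 regions were not varied. With 30 reads in each of the 6 libraries, the median was 5.40 points for dry seed regions of 1 to 9 bp, 31.1 for oxygen regions on chromosome 10 and 3.501 in segment 7 of the re-aeration table; 77 of 80 such values moved by less than the spread between libraries.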
